A study of Homo sapiens with 24 samples.

Results

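PML nuclear bodies are small protein assemblies in the cell nucleus. The 6 genes described here are PML, SP100, SP110, SP140L, DAXX and ATRX. They were chosen by name and not by a cut on measured values, but with earlier results of these data known. They are 6 of the 60609 gene rows in the table. All 6 were at or above 1 TPM (a length-corrected share of each library's transcripts, scaled to 1000000) in every library, so no member depended on the interferon-treated cells to pass the filter of 1 TPM in 3 libraries that left 16062 genes for testing.

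The cells were A549, an established line from a human lung adenocarcinoma. All of them were transfected for 48 h, either with an siRNA pool against BOP1, a factor of large ribosomal subunit assembly, or with a control siRNA against firefly luciferase (FLuc), and are called siBOP1 and siFLuc cells. Mock treatment or 1000 U/mL of interferon beta (IFN) followed, and polyadenylated RNA was measured after 8 h or 12 h. This gave 8 groups of 3 libraries: siFLuc mock, siFLuc IFN, siBOP1 mock and siBOP1 IFN, each at 8 h and at 12 h. The series title concerns ribosome biogenesis and translation during IFN stimulation, whereas the values here are RNA levels in bulk cells, in which a change of level per cell and a change in the number of expressing cells cannot be told apart. One cell line, 1 siRNA pool and 1 IFN dose were used. Nothing says that the libraries of a group came from separate cultures, so p-values measure the spread between these libraries, which may be technical.

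The PML protein, a member of the TRIM family, forms the shell of the body through SUMO modification and SUMO binding. SP100 and its relatives SP110, SP140 and SP140L carry SAND domains and chromatin-reading modules, and SP100 is a permanent resident of the body. DAXX, a SUMO-binding histone chaperone, and ATRX, a SNF2-family remodeler, act as a pair that deposits histone H3.3 and silences incoming viral DNA. PML and SP100 are known IFN-stimulated genes in epithelial cells, switched on through IFN response elements in their promoters.

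BOP1 RNA in siBOP1 cells was 28.1% of the siFLuc mean in mock cells at 8 h, 23.5% in mock cells at 12 h, 29.6% in IFN cells at 8 h and 24.1% in IFN cells at 12 h. The libraries did not overlap in any of these comparisons (exact permutation test, two-sided p = 0.1 in each, the smallest that 3 against 3 allows). A set of 10 epithelial and A549 marker genes summed to between 13572 and 16372 TPM across libraries, with KRT8, KRT18 and KRT7 each above 1000 TPM, although EPCAM stayed at 1.92 to 5.48 TPM. Leukocyte markers summed to at most 5.53 TPM, most of it CD14, with PTPRC at no more than 0.021 TPM. The 8 libraries numbered 4 stood slightly apart at 12 h, where Pearson r with the other libraries of the group was 0.985 to 0.991 against 0.993 to 0.995 among the others. Sequencing depth cannot be read from TPM and is unknown.

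Promoter sequence is shown first because 3 of the 4 members that rose lie in 1 gene cluster, with SP140. SP110 (ENSG00000135899), SP140L (ENSG00000185404) and SP100 (ENSG00000067066) occupy chromosome 2, with SP110 on the minus strand at 230167293 to 230225729, SP140L on the plus strand at 230327184 to 230403732 and SP100 on the plus strand at 230415942 to 230544090 (GENCODE 29, GRCh38). PML lies on chromosome 15 at 73994673 to 74047812, DAXX on chromosome 6 at 33318558 to 33323016 and ATRX on chromosome X at 77504878 to 77786233. RefSeq promoter windows (GRCh38.p14) matched 3 of the 6 members, with 5 annotated starts. The windows below run 5′ to 3′ on the gene's strand from 130 to 31 bases before a start. Capitals mark AAGTGAAA or, on the other strand, its reverse complement TTTCACTT. The windows are chr2:230225667-230225766 and chr2:230220015-230220114 for the 2 starts of SP110, chr2:230327063-230327162 for SP140L and chr2:230416071-230416170 for the first start of SP100.
SP110 start 1: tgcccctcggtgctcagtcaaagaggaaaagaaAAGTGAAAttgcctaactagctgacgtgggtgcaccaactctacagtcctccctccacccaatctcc
SP110 start 2: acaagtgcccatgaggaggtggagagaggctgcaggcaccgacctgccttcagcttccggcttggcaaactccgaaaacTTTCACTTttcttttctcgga
SP140L: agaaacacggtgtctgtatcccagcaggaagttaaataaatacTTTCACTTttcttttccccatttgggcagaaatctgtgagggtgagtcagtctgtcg
SP100 start 1: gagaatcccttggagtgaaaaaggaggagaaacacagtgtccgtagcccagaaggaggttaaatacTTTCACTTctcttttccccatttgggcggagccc

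AAGTGAAA is 1 spelling of AANNGAAA, the core bound by interferon regulatory factors, so the 2 motifs overlap. The capitals begin 97 and 51 bases before the starts of SP110, 87 bases before that of SP140L and 64 bases before the first start of SP100. Searched on both strands of the 250 bases before a start, AAGTGAAA was in 1.37% of all 35116 RefSeq windows and AANNGAAA in 20.3%. Neither was found before the second start of SP100. A pair of GAAA separated by any 2 bases, in 3.02% of windows, was in none of the 5. TTCNNNGAA, also searched and in 6.57% of windows, was found among the 5 only before the second start of SP110. The 250 bases before the start of SP140L and before the first start of SP100 were 74.5% identical when aligned, with gaps counted as differences. Other pairs among the 5 starts were 42.9% to 50.9% identical. These matches describe letters and show no binding.

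The IFN comparisons asked which nuclear body genes respond to IFN. PML and the 3 SP100-family members rose in both siRNA groups at both times, SP110 the most, and DAXX and ATRX were not called in any of the 4 comparisons. The 4 of 6 members that passed (limma on log2(TPM + 1), Benjamini-Hochberg adjusted p under 0.05) compare with 5.77% of tested genes called higher in siFLuc cells at 8 h, 7.06% at 12 h, and 5.99% and 7.17% in siBOP1 cells. In each comparison every IFN library of these 4 members was above every mock library, as for 9.92%, 11.0%, 10.1% and 12.4% of tested genes in the same order. Averaged over siRNAs and times, 13.0% of tested genes were called higher. The 6 members together summed to 104 ± 9.74 TPM (SD, n = 3) in siFLuc mock cells at 8 h and 528 ± 62.2 TPM with IFN.

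**Figure D1:**
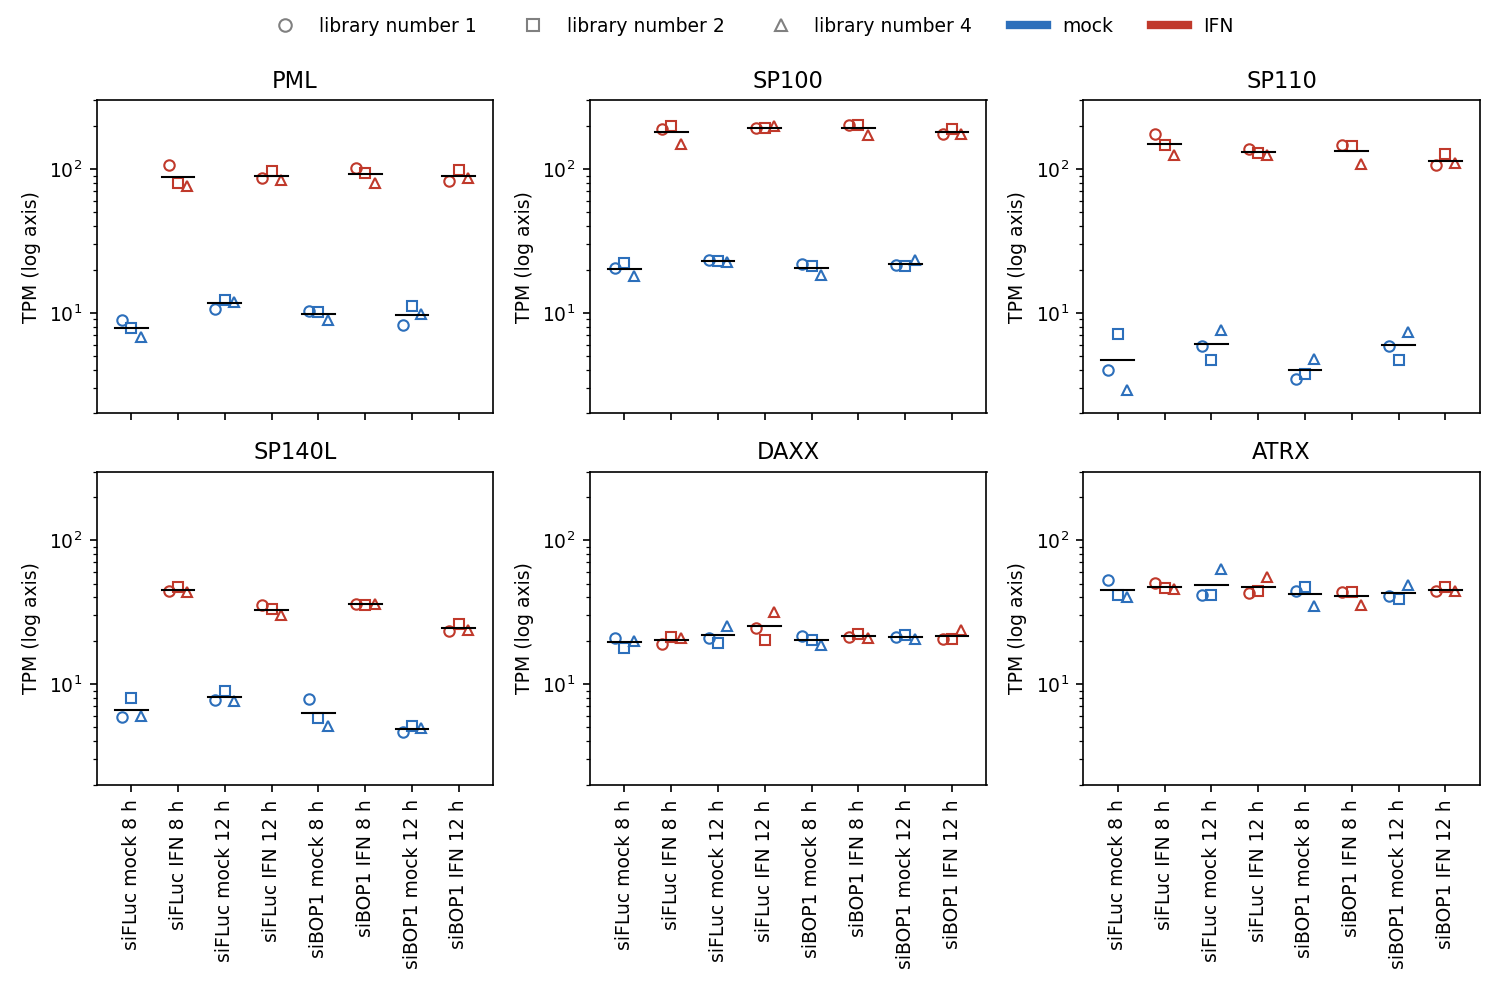
Level of each member in every library, in TPM on a log axis, by group on the horizontal axis. Points are libraries (shape gives the library number), bars are group means, blue is mock and red is IFN. PML, SP100, SP110 and SP140L separate by treatment, from at most 23.3 TPM in mock libraries to at least 23.6 TPM with IFN, whereas the DAXX and ATRX libraries overlap.

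PML, the scaffold of the body, was at 8.95, 7.83 and 6.85 TPM in siFLuc mock libraries at 8 h and at 107, 79.4 and 76.0 TPM with IFN. At 12 h the same cells had 10.7, 12.2 and 11.9 TPM in mock and 86.3, 97.2 and 84.4 TPM with IFN. In siBOP1 cells PML was at 10.2, 10.1 and 8.96 TPM in mock and 102, 93.8 and 79.4 TPM with IFN at 8 h. Every IFN library of PML was above every mock library, by a wide gap. At 12 h siBOP1 cells had 8.23, 11.1 and 9.86 TPM in mock and 82.1, 98.4 and 87.1 TPM with IFN. The rise of PML on the log2(TPM + 1) scale was 3.31 (SE 0.14) in siFLuc cells at 8 h, with limma adjusted p = 4.463e-14, 2.84 at 12 h, and 3.10 and 3.08 in siBOP1 cells at 8 h and 12 h. As a ratio of group means these are 11.1, 7.68, 9.40 and 9.17. The 4 IFN groups of PML, with means from 87.5 to 91.8 TPM, overlapped each other.

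SP100, the SUMO-modified founder of the family, had the highest mock level of the 4 responding genes. It was at 20.4, 22.4 and 17.9 TPM in siFLuc mock libraries at 8 h and at 190, 199 and 149 TPM with IFN. At 12 h siFLuc cells had 23.3, 23.0 and 22.7 TPM in mock and 191, 191 and 197 TPM with IFN. Mock and IFN libraries of SP100 were far apart at both times. siBOP1 cells had 22.0, 21.1 and 18.3 TPM in mock and 203, 201 and 172 TPM with IFN at 8 h. At 12 h they had 21.5, 21.1 and 23.3 TPM in mock and 176, 188 and 174 TPM with IFN. The SP100 differences were 3.08, 3.02, 3.17 and 2.97 (SE 0.10 each, log2 scale, in the order siFLuc 8 h, siFLuc 12 h, siBOP1 8 h, siBOP1 12 h), the narrowest range of the 4 responding genes. The within-library ratio of SP100 to PML level was 2.58 ± 0.29 (SD, n = 3) in siFLuc mock cells at 8 h and 2.08 ± 0.38 with IFN, and these values overlapped. Its mean was 1.98 in mock and 2.17 with IFN in siFLuc cells at 12 h. In siBOP1 cells it was 2.09 and 2.10 at 8 h, and 2.29 and 2.02 at 12 h. These values overlapped too, and the direction was not the same throughout.

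SP110, whose loss causes an inherited immunodeficiency with liver disease, went from the low end of the 6 to near the top. In siFLuc cells at 8 h it was at 3.98, 7.17 and 2.91 TPM in mock and 174, 146 and 126 TPM with IFN. In siFLuc cells at 12 h it was at 5.86, 4.67 and 7.58 TPM in mock and 139, 130 and 125 TPM with IFN. The treatments again did not overlap. siBOP1 cells had 3.47, 3.79 and 4.75 TPM in mock and 147, 143 and 109 TPM with IFN at 8 h. At 12 h siBOP1 cells had 5.84, 4.73 and 7.41 TPM in mock and 106, 126 and 110 TPM with IFN. The differences of SP110 were 4.77, 4.25, 4.74 and 4.05 on the log2 scale (SE 0.21 each), which ranked it between 37 and 55 among the 16062 tested genes. As ratios of group means they were 31.7, 21.7, 33.3 and 19.0.

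SP140L, a close relative of SP140, rose the least of the 4. In siFLuc cells at 8 h it was at 5.90, 8.01 and 5.99 TPM in mock and 44.0, 47.1 and 43.8 TPM with IFN. At 12 h siFLuc cells had 7.73, 8.95 and 7.61 TPM in mock and 35.7, 33.1 and 30.1 TPM with IFN. Treatments did not overlap, and the siFLuc IFN libraries at 12 h were all below those at 8 h, as for 6.18% of tested genes. siBOP1 cells had 7.87, 5.83 and 5.13 TPM in mock and 36.1, 35.2 and 35.9 TPM with IFN at 8 h. At 12 h they had 4.67, 5.14 and 4.92 TPM in mock and 23.6, 26.3 and 23.6 TPM with IFN. The IFN libraries of siBOP1 cells at 12 h were likewise all below those at 8 h, as for 5.46% of tested genes. The differences of SP140L were 2.60, 1.90, 2.35 and 2.11 on the log2 scale (SE 0.13 each). SP140L shared 12.6% of its distinct 50-base transcript stretches with other genes, most of them with SP140, against 3.99% for SP100 and 0.0708% for SP110, and how the authors assigned such reads is not given in the sources used here.

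SP140, a family gene outside the 6 that lies between SP110 and SP140L, was near 0 in mock cells. It was listed at 0 to 0.363 TPM in the 12 mock libraries and at 0.628 to 2.89 TPM in the 12 IFN libraries. Its differences were 1.10, 1.26, 1.62 and 1.08 on the log2(TPM + 1) scale, which understates a change at such low levels. SP140 passed the filter of 1 TPM in 3 libraries only through IFN libraries, so that it had to differ, and its tests support nothing here. SP140 and SP110 overlap on opposite strands. The library kit keeps strand, but whether the counting used it is not given in the sources used here, so reads of this pair may not have been told apart.

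**Figure D2:**
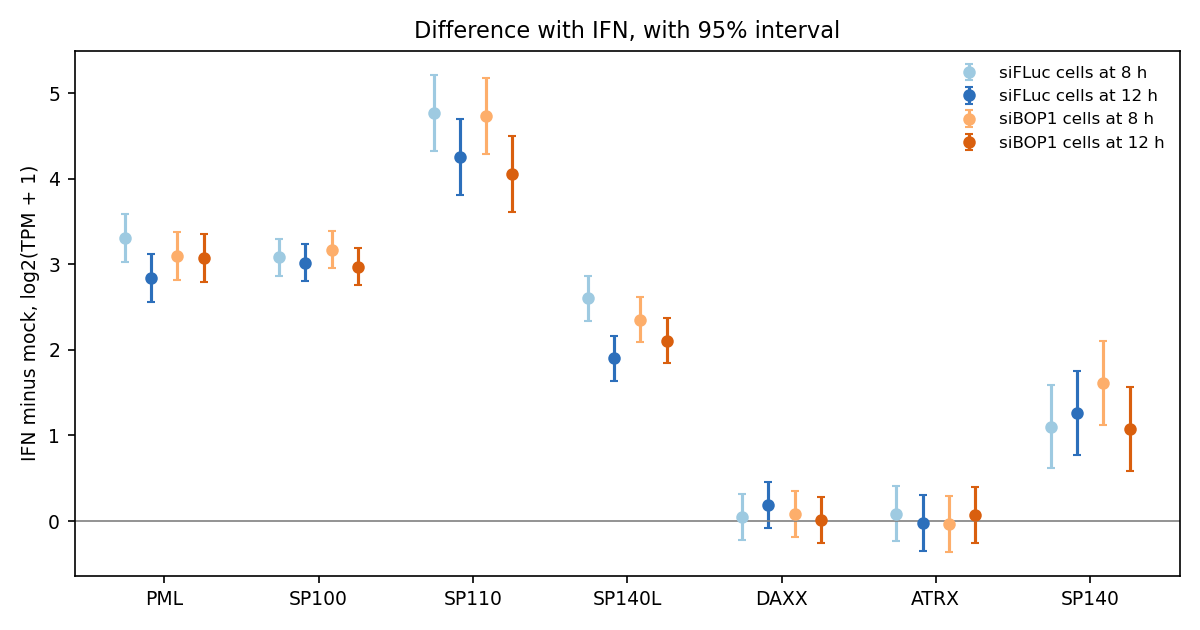
IFN minus mock difference on the log2(TPM + 1) scale (vertical axis) for the 6 members and SP140, with the 95% interval from limma, in siFLuc and siBOP1 cells at 8 h and 12 h. SP110 lies between 4.05 and 4.77, PML and SP100 near 3, SP140L between 1.90 and 2.60, and the intervals of DAXX and ATRX all include 0.

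DAXX and ATRX, the chaperone and remodeler of the pair, were not called in any of the 4 comparisons. DAXX was between 17.9 and 25.3 TPM in the 12 mock libraries and between 18.9 and 31.6 TPM in the 12 IFN libraries. ATRX was between 34.7 and 63.5 TPM in mock and between 35.7 and 55.6 TPM with IFN. Mock and IFN libraries overlapped in all 4 comparisons for both genes. Averaged over siRNAs and times, DAXX differed by 0.09 (SE 0.065, 95% interval -0.05 to 0.22, limma adjusted p = 0.3132) and ATRX by 0.03 (95% interval -0.14 to 0.19, adjusted p = 0.8168). When libraries were rescaled by median of ratios, which moved the median of all genes by 0.08 in the average comparison and by 0.13 in siBOP1 cells at 8 h, the DAXX average became 0.17 with adjusted p = 0.01151 and was then called higher. DAXX shared 11.8% of its 50-base stretches with 1 other annotated gene, AL662820.1, and ATRX shared none.

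The order of the members' levels changed with IFN. In mock cells ATRX was highest in each of the 4 groups, followed by SP100 and DAXX, whose libraries overlapped, then PML, then SP140L and SP110. In siFLuc mock cells at 8 h PML overlapped SP140L, and SP140L overlapped SP110. In siBOP1 mock cells at 12 h SP110 (mean 5.99 TPM) was above SP140L (4.91 TPM), with overlapping libraries. With IFN the order in each of the 4 groups was SP100, SP110, PML, ATRX, SP140L and DAXX. Among neighbours in that order, SP100 and SP110 overlapped in siFLuc cells at 8 h, ATRX and SP140L overlapped at 8 h in both siRNA groups, and SP140L and DAXX overlapped at 12 h in both. All other neighbours with IFN were separate.

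Over the 24 libraries, the genes most like PML by Pearson r of log2(TPM + 1), among tested genes with a mean of at least 5 TPM, were GBP1 (0.996), TRANK1 and PHF11. Among those most like SP100 were IRF7 (0.998) and OAS2. RIGI, IRF7 and HERC5 came nearest to SP110 (0.994 to 0.995), and TRIM21, HES4 and RIGI to SP140L (0.978 to 0.979). The nearest genes to DAXX and ATRX were less close, DDX59 at 0.828 and DENND4A at 0.854, and the pair reached 0.498 with each other. All these values share the same libraries and the same 2 treatments.

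Genes that flank the members moved less than the 4 responding members. Beyond SP100, CAB39 was higher by 0.32 (limma adjusted p = 9.206e-05), and beyond SP110, SLC16A14 was lower by 0.55 (log2 difference -0.55, adjusted p = 0.02282), at medians of only 1.65 TPM in mock and 0.50 TPM with IFN. Both values are averages over siRNAs and times. STOML1 lies 51 bases from PML on the opposite strand. It was higher with IFN by 0.26 on average (adjusted p = 0.01255), and among the 4 comparisons it was called in siBOP1 cells at 12 h, at 0.78. MAGT1, next to ATRX, was higher by 0.38, while ZBTB22 and KIFC1 beside DAXX, STRA6 beside PML and MAGEE1 beside ATRX were not called.

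**Figure D3:**
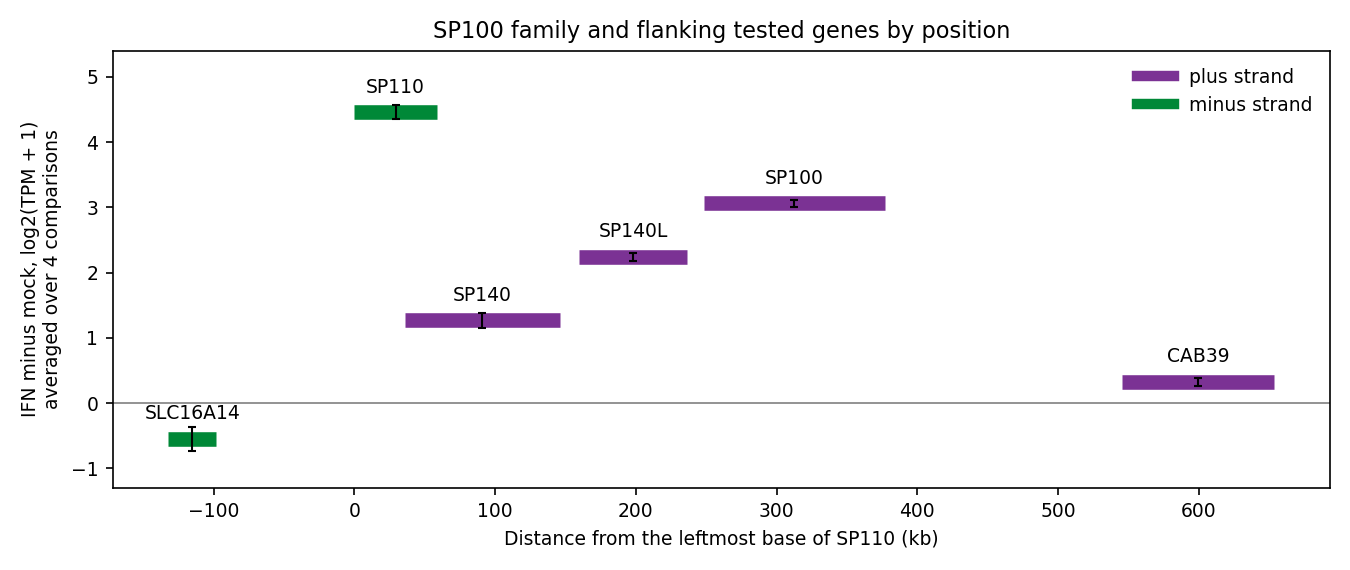
Genes of the SP100 family and the nearest tested protein-coding gene on each side, by distance in kb from the leftmost base of SP110 (horizontal axis), at the height of their average IFN minus mock difference on the log2(TPM + 1) scale. Bar length is gene length, colour is strand and whiskers are ±1 SE. SP110 (4.45), SP100 (3.06) and SP140L (2.24) stand above CAB39 (0.32) and SLC16A14 (-0.55). SP140 (1.27) is drawn for its position only. It passed the filter only through IFN libraries, so its height supports nothing here.

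The genes around the body were read from 5 lists, chosen with earlier results of these data known. All 8 genes of the list of IFN signalling and reference targets rose in all 4 comparisons, among them STAT2 (average log2 difference 3.96), IRF9 (2.82) and MX1 (8.33), with a list median of 4.57 against -0.10 for all tested genes. Of 20 nuclear body partners, 5 were higher and 3 lower on average, with a median of -0.03, where 13.0% of all tested genes were higher and 29.0% lower. The 5 include SP140, the 1 list gene that passed the filter only through IFN libraries. ISG20, an exonuclease found in the bodies, rose by 4.19, 4.64, 4.55 and 4.89. USP7, a deubiquitinase that binds PML, fell by 0.42, 0.47, 0.43 and 0.33 in the same order of comparisons, the last not called after median-of-ratios rescaling (adjusted p = 0.06137).

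Among 20 genes of SUMO conjugation and removal, 1 was higher and 7 lower on average, with a median of -0.12, beside the same 13.0% and 29.0% of all tested genes. PIAS2, a SUMO ligase, was called lower in all 4 comparisons, with differences of -0.79, -0.62, -0.71 and -0.52, the last not called after median-of-ratios rescaling (adjusted p = 0.06301). These small average differences depended on scaling: after rescaling by median of ratios the list had 3 higher and 2 lower, with PIAS2 still lower on average (-0.58, adjusted p = 6.087e-06).

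Of 12 other genes of histone H3.3 and its deposition, 4 were higher and 4 lower on average, beside 13.0% and 29.0% of all tested genes. HIRA, the chaperone of the other H3.3 pathway, rose by 0.72, 0.72, 0.77 and 0.84. H3-3B, 1 of the 2 genes for H3.3, rose by 0.50, 0.47, 0.64 and 0.56, and both genes were called higher on average after either rescaling. H3-3A, the other gene, was lower by 0.44 on average (log2 difference -0.44, limma adjusted p = 0.003944), a call lost under median-of-ratios rescaling (adjusted p = 0.05204). Among 18 genes of H3K9 methylation and repression, 0 were higher and 9 lower on average, beside 13.0% and 29.0% of all tested genes, with CBX5 at -0.37 and SUV39H1 at -0.29. Of the 18, 4 were lower after median-of-ratios rescaling, 10 after quantile normalization and 12 with the replicate block. With median-of-ratios rescaling the average IFN comparison over all genes went from 2084 higher and 4652 lower to 2913 and 3019.

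The BOP1 comparisons asked whether siRNA against a ribosome assembly factor altered the same RNAs. SP140L was lower in siBOP1 cells on average, and no other member was called on average. The average difference of SP140L was -0.36 on the log2(TPM + 1) scale (SE 0.063, 95% interval -0.49 to -0.23, limma adjusted p = 0.0004434). That is 1 of 6 members, beside 6.91% of tested genes called lower on average. In mock cells at 12 h, siBOP1 libraries were at 4.67, 5.14 and 4.92 TPM and siFLuc libraries at 7.73, 8.95 and 7.61 TPM.

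The 2 siRNA groups of SP140L did not overlap there, as with siBOP1 lower for 7.55% of tested genes, and the siBOP1 mean was 60.6% of the siFLuc mean. The log2 difference of -0.62 was called lower (limma adjusted p = 0.01446), as were 0.697% of tested genes. The size of the difference changed little when single libraries were left out, but the call was lost without siFLuc library 2 (-0.55, adjusted p = 0.0637), without siBOP1 library 1 (-0.59, adjusted p = 0.06302) or without siBOP1 library 4 (-0.62, adjusted p = 0.05942). With the spread taken from these 2 groups alone the adjusted p was 0.2461, and with library number as a block it was 0.003796. With IFN at 8 h the siBOP1 mean of SP140L was 79.5% of the siFLuc mean, and at 12 h 74.3%, and the libraries did not overlap at either time (9.92% and 5.61% of tested genes had siBOP1 lower in this way). These differences, -0.32 and -0.41, did not pass (limma adjusted p = 0.2315 and 0.1972). In mock cells at 8 h the SP140L libraries overlapped, with a difference of -0.07.

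**Figure D4:**
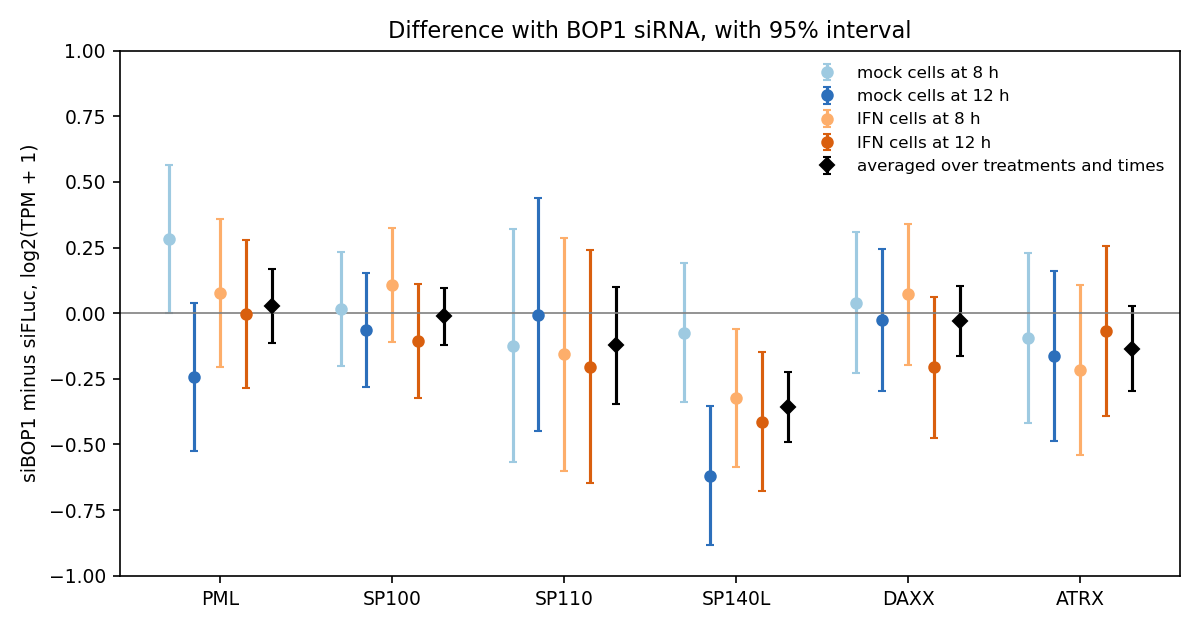
siBOP1 minus siFLuc difference on the log2(TPM + 1) scale (vertical axis) for the 6 members, with the 95% interval from limma, in each treatment and time and averaged over them (black diamonds). The average of SP140L lies at -0.36 with its interval below 0, and the average intervals of the other 5 members include 0.

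PML was higher in siBOP1 than in siFLuc mock libraries at 8 h, where the 2 groups did not overlap, as for 12.4% of tested genes. The log2 difference was 0.28 (limma adjusted p = 0.3852), and it was called when library number was taken as a block (replicate block, adjusted p = 0.02915). The block raised the share of all tested genes called higher in that comparison from 1.49% to 5.91%. At 12 h in mock cells the PML difference was -0.24, and with IFN it was 0.08 at 8 h and -0.00 at 12 h. Its average was 0.03.

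The other members had averages close to 0. SP100 differed by -0.01 (95% interval -0.12 to 0.10), SP110 by -0.12 (-0.34 to 0.10), DAXX by -0.03 and ATRX by -0.14 (-0.30 to 0.03). SP100 siBOP1 libraries with IFN at 12 h were all below the siFLuc ones, and so were ATRX siBOP1 libraries with IFN at 8 h, beside the 5.61% and 9.92% of tested genes given above. In single comparisons, limma called 0 of 6 members in mock cells at 8 h, 0 in IFN cells at 8 h and 0 in IFN cells at 12 h, where 1 member each had an unadjusted p under 0.05 (PML, SP140L and SP140L). Of all tested genes, 1.49% were called higher and 0.666% lower in the first of these comparisons, 1.25% and 0.760% in the second, and 0.392% and 0.268% in the third.

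STOML1, the neighbour of PML, was higher in siBOP1 cells by 0.60 on average (limma adjusted p = 1.665e-05). It was called in IFN cells, at 0.90 at 8 h and 0.79 at 12 h (limma adjusted p = 0.003481 and 0.01764). In mock cells it was not called, at 0.51 and 0.21 (limma adjusted p = 0.1035 and 0.6461). From the 5 lists, 2 of 20 SUMO genes, 1 of 20 partners, 1 of 12 H3.3 genes and 2 of 18 H3K9 genes were called lower on average. Of all tested genes, 6.91% were called lower on average and 10.0% higher. In the lists, 1 SUMO gene was called higher. SENP2, a SUMO protease, was lower by 0.58 (log2 difference -0.58), and UBN1, a partner of HIRA, was at -0.37, both called on average. PIAS3, TRIM24, SETDB1 and EHMT2 were lower by less, and EHMT2 was not called after quantile normalization (adjusted p = 0.06425). In the single BOP1 comparisons limma called 0.660% (IFN, 12 h) to 2.16% (mock, 8 h) of all tested genes in either direction. Of the 78 list genes, limma called 0 in each. In mock cells at 8 h and 12 h and in IFN cells at 8 h and 12 h, 8, 5, 4 and 4 of them had an unadjusted p under 0.05, and 5, 1, 3 and 2 were called with library number as a block, beside 8.49%, 7.66%, 8.81% and 3.77% of all tested genes called with that block. The 7 bases GCCAGTT were looked for because earlier results of these data had them often in the 3′ UTRs of genes lower in siBOP1 cells. Annotated 3′ UTRs held them in 30.3% of genes called lower on average, 12.3% of those not called and 7.03% of those called higher. Because the bases were picked on these data, that contrast was set in advance and gives no separate support. None of the 6 members had them, nor did BOP1, beside 13.1% of all tested genes with an annotated 3′ UTR. The part of these 7 bases in any difference was not tested.

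The last comparisons tested whether BOP1 siRNA or time altered the size of the IFN difference. None of the 6 members passed, with limma calling 0 of 6 in each of the 3 siRNA by IFN comparisons, and 0% of all tested genes passed there too. No member had an unadjusted p under 0.05 in them. With library number as a block, limma also called 0, and 1 member had an unadjusted p under 0.05, at 12 h. The siRNA by IFN differences lay between -0.25 (SP140L) and 0.09 (SP100) at 8 h and between -0.20 (SP110) and 0.24 (PML) at 12 h.

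For time, the IFN difference of SP140L in siFLuc cells was smaller at 12 h than at 8 h by 0.70 (log2 difference -0.70, SE 0.18, limma adjusted p = 0.8999), and that of PML by 0.47 (-0.47, adjusted p = 1). In siBOP1 cells the SP110 difference was smaller by 0.69 (-0.69, adjusted p = 1). These 3 had an unadjusted p under 0.05, and limma called 0 of 6 in either siRNA group, beside 0.00623% of tested genes in siFLuc cells and 0% in siBOP1 cells. With the block limma also called 0 of 6, beside 0.0249% of tested genes in each siRNA group, and 2 members in each siRNA group had an unadjusted p under 0.05. In siFLuc cells the PML mean with IFN was 87.5 TPM at 8 h and 89.3 TPM at 12 h. Its mock mean was 7.88 and then 11.6 TPM. The SP140L mean with IFN was 45.0 and then 33.0 TPM, and its mock mean 6.63 and then 8.10 TPM.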

How the data were processed

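RNA from 24 A549 libraries was analysed. The authors deposited 1 table of TPM values, each column summing to 1000000; a strand-keeping mRNA kit was used, per the labels' protocols, and the aligner, quantifier, build and annotation are not given in the sources used here. Of the 24 columns, 16 matched a labelled replicate by group and number, and 8, numbered 4 where the labels go up to 3, matched a group only. TPM is a share, so a rise of some genes lowers all others.

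Genes at 1 TPM or more in at least 3 libraries (16062) were put on the log2(TPM + 1) scale and fitted in R 4.3.3 by limma 3.58.1 (8 group means, all 24 libraries, intensity trend, no block) and p-values were Benjamini-Hochberg adjusted over all of them with a threshold of 0.05. The script was tested on simulated data. Deviations of libraries with the same number from their group means correlated with r from 0.115 to 0.508, all over 0.1. The numbers were therefore taken to pair libraries across groups, although no label says what a number shares. In each comparison r was highest for the libraries numbered 4, at 0.200 to 0.508, against 0.115 to 0.268 for numbers 1 and 2. Libraries of different numbers were not compared in this way. The main fit did not use this pairing, which entered only as the replicate block. For BOP1 siRNA in mock cells at 8 h, the SE of PML was 0.136 in the main fit and 0.076 with the block. Genes called there rose from 2.16% to 8.49% of those tested. Members, lists and alternatives were chosen with earlier results of these data known. Genes named are the 6 members, BOP1, list genes called in all 4 IFN comparisons, the 3 genes most like each member and the nearest tested protein-coding neighbours; other list genes and the extremes of a comparison were chosen after their values were seen, and a few genes the rule names are not reported here. The check for GCCAGTT and for shared 50-base stretches used GENCODE 29 transcripts, which are not the exact annotation of the table. Alternatives were a pseudocount of 0.1, other filters, rescaling, quantile normalization, no trend, a replicate block, fewer libraries or groups, and each library left out.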

Additional observations from a re-analysis of the deposited data

Results flagged for a closer look

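The members' comparisons were searched for differences whose sign turned over in every numbered pair of libraries, and those picked are given here. How many tested genes turn over in this way is not given, so these cases are not shown to be unusual. The BOP1 siRNA difference of PML in mock cells turned over between the times in every numbered pair of libraries. It was 0.18, 0.33 and 0.34 on the log2(TPM + 1) scale at 8 h for libraries 1, 2 and 4, and -0.34, -0.13 and -0.25 at 12 h. Mock means of PML at 8 h and 12 h were 9.77 and 9.72 TPM in siBOP1 cells and 7.88 and 11.6 TPM in siFLuc cells. The change of the difference from 8 h to 12 h was -0.53 (SE 0.19). In a test added after the data were seen, it had an unadjusted p of 0.01248 and a limma adjusted p of 1, or 0.6228 with library number as a block, and limma called 0 of 16062 genes. The same test gave -0.54 for SP140L (unadjusted p = 0.006442, limma adjusted p = 1).

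The BOP1 siRNA difference of SP100 in IFN cells was also above 0 for each numbered pair at 8 h and below 0 for each at 12 h. For libraries 1, 2 and 4 it was 0.10, 0.02 and 0.20 at 8 h and -0.12, -0.02 and -0.18 at 12 h, so library 2 was near 0 at both times. The change was -0.21 (SE 0.15, limma unadjusted p = 0.1626, adjusted p = 1).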

How the results depend on the processing

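The alternative settings gave 368 values for the IFN differences of PML, SP100, SP110 and SP140L. These count each member, IFN comparison and setting, and come from fits that share most libraries. All 368 kept their direction and a limma adjusted p under 0.05. The averages of the 4 members ran from 3.04 to 3.20, 3.03 to 3.15, 4.40 to 4.69 and 2.21 to 2.39. The replicate block called 1 member higher with BOP1 siRNA in mock cells at 8 h (PML) instead of 0, and changed no other call of a member. The 1 member called lower with BOP1 siRNA in mock cells at 12 h (SP140L) became 0 with only the groups compared, and 0 to 1 when single libraries were left out. The average SP140L difference stayed called in every alternative run; averages had no fit on fewer groups. TPM keeps no depth, so differences at low levels cannot be given a counting limit.

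Values that changed sign were all uncalled. After median-of-ratios rescaling, ATRX with IFN became 0.038 (siFLuc 12 h) and 0.115 (siBOP1 8 h), SP100 with BOP1 siRNA became -0.021 (mock 8 h, and -0.020 after quantile normalization) and PML 0.0041 (IFN 12 h). With libraries 1 and 2 only, ATRX became 0.062 (IFN, siFLuc 12 h) and 0.062 (BOP1 siRNA, IFN 12 h), SP110 0.0057 (BOP1 siRNA, mock 12 h) and DAXX -0.075 (IFN, siBOP1 12 h), 0.101 (BOP1 siRNA, mock 12 h) and 0.053 (BOP1 siRNA average).

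Of the fits that left out 1 library, 40 turned the sign of an uncalled value, and the values concerned are given as ranges. For IFN, DAXX ran from -0.010 to 0.0996 (siFLuc 8 h) and -0.054 to 0.049 (siBOP1 12 h), and ATRX from -0.135 to 0.176 (siFLuc 12 h), -0.164 to 0.058 (siBOP1 8 h) and -0.0060 to 0.076 (average). For BOP1 siRNA in mock cells at 8 h, the ranges were -0.063 to 0.093 for SP100, -0.359 to 0.173 for SP110, -0.226 to 0.050 for SP140L, -0.022 to 0.095 for DAXX and -0.182 to 0.035 for ATRX. In mock cells at 12 h they were -0.152 to 0.147 for SP110, -0.110 to 0.080 for DAXX and -0.262 to 0.035 for ATRX. In IFN cells they were -0.015 to 0.230 for PML and -0.020 to 0.187 for SP100 at 8 h, and -0.076 to 0.059 for PML and -0.140 to 0.046 for ATRX at 12 h. Averages ran from -0.043 to 0.0084 for SP100 and -0.067 to 0.011 for DAXX. The siRNA by IFN difference of SP100 at 8 h ran from -0.037 to 0.169, and the time by IFN difference of DAXX in siFLuc cells from -0.022 to 0.291. The cause of these changes was not tested.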
